A study of Mus musculus with 7 samples.

Results

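The SOX genes described here are 10 members of the SOX family other than Sox2, namely Sox4, Sox11, Sox12, Sox5, Sox6, Sox13, Sox21, Sox9, Sox7 and Sox15. They were chosen by name and are 10 of the 55423 features of the count table. All 10 had enough reads to be tested, among 24433 genes tested in all. The question was how these relatives of SOX2 were expressed in skin tumours that did or did not carry a SOX2 transgene.

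Bulk RNA depleted of ribosomal RNA was sequenced from cutaneous squamous cell carcinomas (cSCC) of mice on a C57BL/6J background, 3 tumours of each genotype. In Ivl:BRAFV600E mice, tamoxifen put on the skin activated a Cre recombinase under the involucrin promoter, so that the BRAFV600E oncogene was switched on in the IVL+ population of the skin. Ivl:BRAFV600E-SOX2LSL mice carried in addition a Rosa26 allele from which the same recombinase switches on SOX2 together with eGFP, so both groups shared the Cre and the oncogene, and the mice were 7 to 10 weeks old at induction per the labels. The methods give a somewhat later age range for induction. The Ivl:BRAFV600E tumours RBAV23-4g (female), RBAV25-3j (female) and RBAV27-2c (male) were collected on days 88, 88 and 120 after induction. The Ivl:BRAFV600E-SOX2LSL tumours RBBD12-1j (male), RBBD5-2a (male) and RBBD9-2f (female) were collected on days 55, 59 and 70, so genotype and time since induction cannot be told apart. Each tumour held 23565432 to 31152826 counts on genes, and 3 counts corresponded to 0.0839 to 0.143 CPM (the count of a gene per 1000000 counts of the library). Sox2, the gene of the transgene, was measured at 0.716, 0.508 and 0.238 CPM in the Ivl:BRAFV600E tumours and at 182, 155 and 158 CPM in the Ivl:BRAFV600E-SOX2LSL tumours, with every tumour on the side that its label gives. The keratinocyte genes Krt5 and Krt14 were abundant in all 6 tumours, with Krt5 between 2371 and 3900 CPM.

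SOX proteins are transcription factors that bind and bend DNA through a shared high-mobility-group (HMG) box. They are sorted into groups by the similarity of that box. SOXC factors (Sox4, Sox11, Sox12) act in progenitor cells of many tissues, and SOXD factors (Sox5, Sox6, Sox13) lack a known transactivation domain and act with partners, Sox5 and Sox6 with SOX9 in cartilage. Sox21 is a SOXB2 factor, usually a repressor, and is needed for the hair shaft cuticle. Sox9 (SOXE) marks and maintains hair follicle stem cells, Sox7 (SOXF) is best known from the endothelium, and Sox15 (SOXG) from muscle precursor cells. In SOX2, the HMG box binds DNA words close to ACAAAG and ACAATG.

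The HMG box is where the family members resemble each other most, and where reads of one gene could be taken for another. Over the 79 residues compared, the Sox21 box matched the Sox2 box at 93.7% of residues and the Sox15 box at 77.2%. The SOXC boxes matched it at 62.0% to 64.6% and the SOXD boxes at 51.9% to 53.2%. Within the groups, the Sox4 and Sox11 boxes were 91.1% identical, and the Sox5 and Sox13 boxes 93.7%. A stretch of 27 bases that codes for the start of the box is shown to make this visible, with capitals for the bases that differ from Sox2. On the GRCm38 build these stretches, each within an exon, are Sox2 at chr3:34650548-34650574 (plus), Sox21 at chr14:118235582-118235608 (minus), Sox15 at chr11:69655517-69655543 (plus), Sox4 at chr13:28952815-28952841 (minus), Sox11 at chr12:27342232-27342258 (minus), Sox12 at chr2:152397549-152397575 (minus), Sox5 at chr6:143841247-143841273 (minus), Sox6 at chr7:115489736-115489762 (minus) and Sox13 at chr1:133385539-133385565 (minus).
Sox2: aggcccatgaacgccttcatggtatgg
Sox21: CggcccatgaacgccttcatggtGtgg
Sox15: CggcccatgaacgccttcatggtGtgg
Sox4: CggcccatgaacgccttTatggtGtgg
Sox11: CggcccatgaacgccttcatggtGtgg
Sox12: CggccGatgaacgcGttcatggtGtgg
Sox5: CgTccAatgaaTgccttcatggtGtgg
Sox6: CgAccAatgaaTgcGttcatggtTtgg
Sox13: agAcccatgaaTgccttcatggtGtgg
Sox21, Sox15 and Sox11 had the same 27 bases, and Sox6 differed from Sox2 at 6 of them. The longest run of bases shared exactly was 48 between Sox4 and Sox11 and 38 between Sox2 and Sox21, both shorter than the 150 bases of a read.

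Of the 10 SOX genes, 2 were called higher in Ivl:BRAFV600E-SOX2LSL tumours at an adjusted p below 0.05 in edgeR's quasi-likelihood test with Benjamini-Hochberg adjustment over all genes, and 0 were called lower (1, Sox7, at an unadjusted p below 0.05 and with DESeq2, 0 with limma-voom). The called genes were Sox4 and Sox5. Over all genes tested, 954 were called (3.9%), 585 higher (2.39%) and 369 lower (1.51%). Without overlap between the groups, 4 of the SOX genes were higher in every Ivl:BRAFV600E-SOX2LSL tumour (Sox4, Sox11, Sox5 and Sox21) and 1 was lower (Sox7). Over all genes, 18.2% were higher without overlap and 16% lower. The median log2 fold change was 0.77 over the 10 SOX genes and 0.04 over all genes. At an unadjusted p below 0.05 stood 5 of the 10 SOX genes and 6280 of all genes. In bulk tumours, a change in the number of cells that express a gene and a change in the RNA per cell cannot be told apart.

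**Figure D1:**
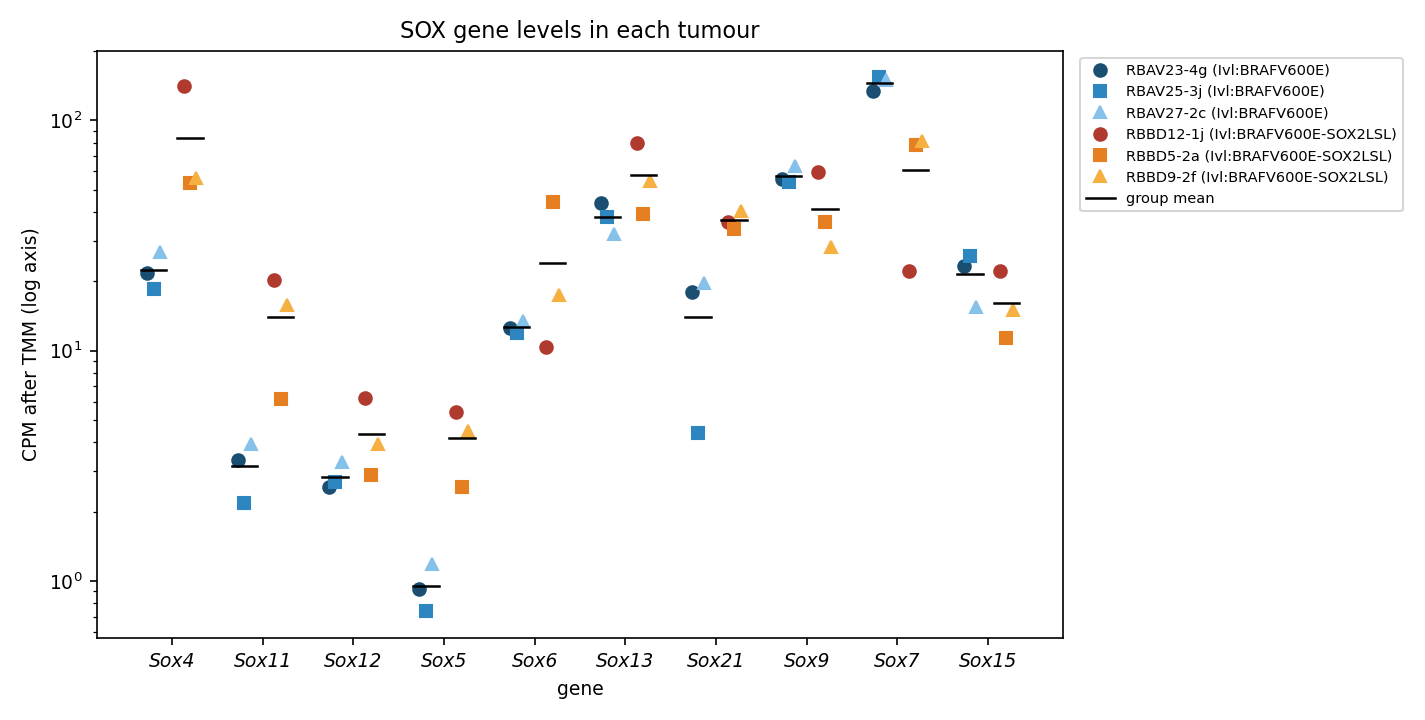
Level of each of the 10 SOX genes (horizontal axis) in CPM after TMM scaling (vertical axis, logarithmic), with 1 point per tumour, blue for Ivl:BRAFV600E and red to orange for Ivl:BRAFV600E-SOX2LSL, and a black line at each group mean of 3 tumours. The groups lie apart for Sox4, Sox11, Sox5, Sox21 and Sox7, and RBBD12-1j is the highest point of its group for 7 of the 10 genes.

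Among the SOXC genes, Sox4 was called higher in Ivl:BRAFV600E-SOX2LSL tumours, and Sox11 and Sox12 did not pass the test. Sox4 (chr13:28948919-28953713, minus strand, GRCm38, a single exon) was measured at 21.8, 18.5 and 26.7 CPM in the Ivl:BRAFV600E tumours RBAV23-4g, RBAV25-3j and RBAV27-2c, and at 141, 53.5 and 56.3 CPM in RBBD12-1j, RBBD5-2a and RBBD9-2f. Every Ivl:BRAFV600E-SOX2LSL tumour was above every Ivl:BRAFV600E tumour, and RBBD12-1j stood well above the other 2. The group means were 22.3 ± 4.14 and 83.6 ± 49.7 CPM (SD, n = 3 each), a 3.74-fold difference, with a log2 fold change of 1.90 ± 0.40 (SE, adjusted p = 0.0489 in edgeR). Without RBBD12-1j the log2 fold change was 1.30, and the adjusted p was 0.0104. Each of the other removals ended the call, with an adjusted p in edgeR of 0.182 without RBAV23-4g, 0.154 without RBAV25-3j, 0.101 without RBAV27-2c, 0.0633 without RBBD5-2a and 0.0614 without RBBD9-2f. In the full set of tumours, the call was also lost with DESeq2's size factors (adjusted p = 0.0501 in edgeR), with limma-voom (0.0609) and with sex as a covariate in edgeR (0.112). A long noncoding gene on the other strand, Gm26735, overlaps 54.6% of the Sox4 exon and has no row in the count table.

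Sox11 (chr12:27334264-27342574, minus strand, a single exon), the closest relative of Sox4, was lower in level and followed the same order of groups. It was measured at 3.34, 2.17 and 3.94 CPM in the Ivl:BRAFV600E tumours and at 20.3, 6.15 and 15.7 CPM in the Ivl:BRAFV600E-SOX2LSL tumours RBBD12-1j, RBBD5-2a and RBBD9-2f. The groups did not overlap. The log2 fold change of Sox11 was 2.15 ± 0.46 (SE), with an adjusted p of 0.0505 in edgeR, just above the threshold, so it was not called. Without RBBD5-2a, its lowest Ivl:BRAFV600E-SOX2LSL tumour, the value was 2.51 (adjusted p = 0.0321 in edgeR), and with any other tumour left out the adjusted p was 0.0557 to 0.179. Sox11 was also called with DESeq2 (adjusted p = 0.000155) and in edgeR without a filter on low counts (0.0180) or with filterByExpr (0.0476), but not with limma-voom (0.0893) or with sex as a covariate (0.115). Per kilobase (kb) of exon, Sox4 exceeded Sox11 by 11.3, 14.8 and 11.7 times in the Ivl:BRAFV600E tumours and by 12.0, 15.1 and 6.21 times in RBBD12-1j, RBBD5-2a and RBBD9-2f.

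Sox12 (chr2:152393611-152398063, minus strand), the third SOXC gene, did not pass the test. Its levels were 2.56, 2.68 and 3.28 CPM in the Ivl:BRAFV600E tumours and 6.24, 2.88 and 3.94 CPM in the Ivl:BRAFV600E-SOX2LSL tumours. RBBD12-1j was again the highest, while RBBD5-2a lay within the Ivl:BRAFV600E range. The estimated log2 fold change was 0.62 (95% interval −0.15 to 1.39, adjusted p = 0.281 in edgeR), and it was 0.26 without RBBD12-1j. Of 3 genes listed as targets of SOXC factors, 2 were tested and 0 were called in edgeR, DESeq2 or limma-voom, or at an unadjusted p below 0.05. One of them, Tead2, chosen after its values were seen, was at 14.9 CPM in RBBD12-1j and between 1.62 and 2.37 CPM in the other 5 tumours.

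Among the SOXD genes, Sox5 was called higher, and Sox6 and Sox13 did not pass the test. Sox5 (chr6:143828425-144781977, minus strand) had the fewest reads of the 10 genes, with 16 to 27 reads per Ivl:BRAFV600E tumour and 79 to 194 per Ivl:BRAFV600E-SOX2LSL tumour. Its levels were 0.921, 0.739 and 1.19 CPM in the Ivl:BRAFV600E tumours and 5.43, 2.56 and 4.48 CPM in RBBD12-1j, RBBD5-2a and RBBD9-2f. No Ivl:BRAFV600E tumour reached the lowest Ivl:BRAFV600E-SOX2LSL tumour. For Sox5 the log2 fold change was 2.13 ± 0.37 (SE), with an adjusted p of 0.0325 in edgeR, the smallest of the 10 SOX genes. The call held without RBBD12-1j (adjusted p = 0.0321 in edgeR) and without RBBD5-2a (0.0457). It was lost in edgeR without RBAV23-4g (adjusted p = 0.154), without RBAV25-3j (0.112), without RBAV27-2c (0.0719) and without RBBD9-2f (0.0698). With limma-voom the adjusted p was 0.0518, and with sex as a covariate in edgeR it was 0.0802. The antisense gene Sox5os1 shares 9.25% of the Sox5 exon length and had 1 read over the 6 tumours.

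Sox6 (chr7:115470872-116038796, minus strand) stood apart in a single tumour. It was measured at 12.5, 11.9 and 13.4 CPM in the Ivl:BRAFV600E tumours, at 44.1 CPM in RBBD5-2a, and at 10.4 and 17.5 CPM in RBBD12-1j and RBBD9-2f. The log2 fold change of 0.93 (95% interval −0.20 to 2.06, adjusted p = 0.270 in edgeR) became 0.14 without RBBD5-2a. Sox6 is also known for repressing slow-fibre genes in skeletal muscle. The summed level of the skeletal muscle markers was 1098 CPM in RBBD5-2a, 971.5 CPM in RBBD12-1j and 226 CPM in RBBD9-2f. Single muscle markers differed in their order. In RBBD5-2a and RBBD12-1j, Myh1 was at 433 and 81.7 CPM, Myog at 1.65 and 0.280 CPM, and Myh4 at 17.7 and 270 CPM. The part of muscle in the Sox6 level was not tested.

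Sox13 (chr1:133382303-133424377, minus strand), the third SOXD gene, was measured at 43.8, 37.9 and 32.2 CPM in the Ivl:BRAFV600E tumours and at 79.8, 39.2 and 54.6 CPM in the Ivl:BRAFV600E-SOX2LSL tumours. RBBD5-2a lay inside the Ivl:BRAFV600E range. For Sox13 the log2 fold change was 0.61 (95% interval −0.01 to 1.22, adjusted p = 0.198 in edgeR), and 0.30 without RBBD12-1j. Of the 12 cartilage genes listed as targets of Sox9, Sox5 and Sox6, 10 were tested and 0 were called in edgeR and limma-voom, against 1 in DESeq2 and 1 at an unadjusted p below 0.05. The median of their log2 fold changes was −1.32. Their summed level ran from 2.86 to 29.8 CPM in the Ivl:BRAFV600E tumours and from 3.19 to 9.28 CPM in the Ivl:BRAFV600E-SOX2LSL tumours.

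**Figure D2:**
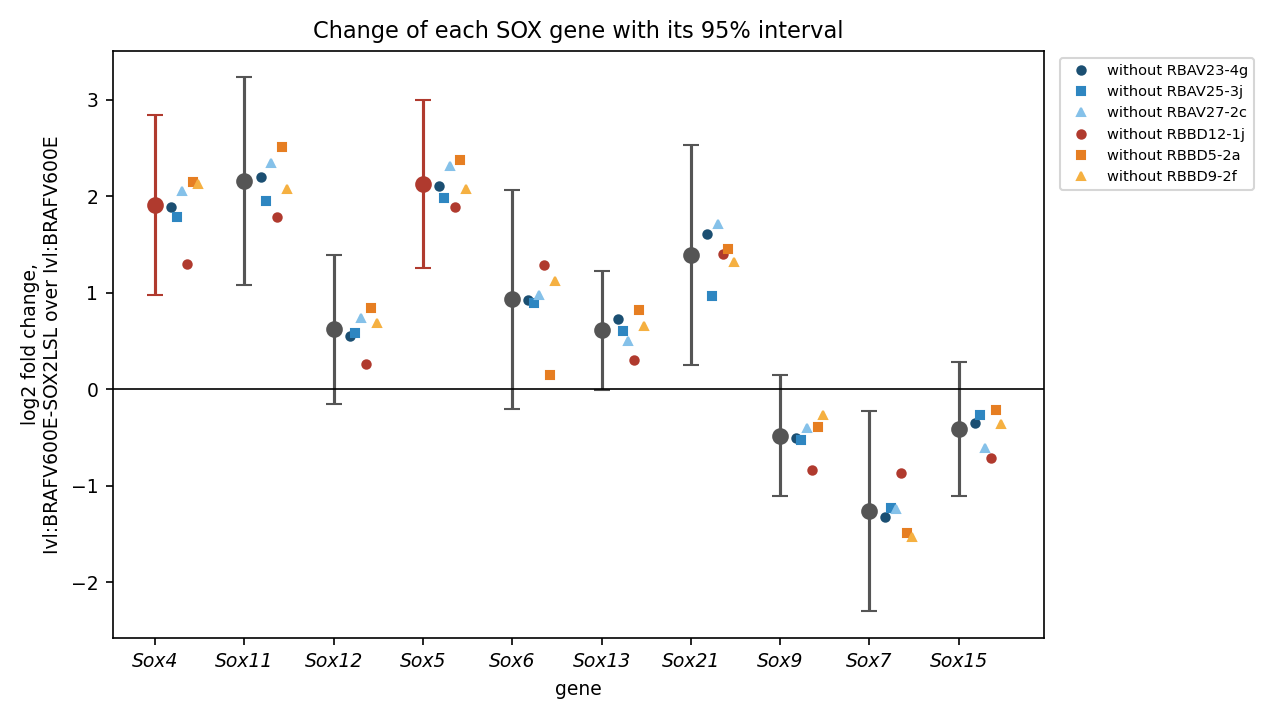
Log2 fold change of each SOX gene, Ivl:BRAFV600E-SOX2LSL over Ivl:BRAFV600E (vertical axis), with its 95% interval as a bar, red where the adjusted p was below 0.05 and grey otherwise, and small points for the value with each tumour left out. All points of Sox4, Sox11, Sox5 and Sox21 lie above 0, Sox6 falls to 0.14 without RBBD5-2a, and Sox4 falls to 1.30 without RBBD12-1j.

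Sox21 (chr14:118233232-118237030, minus strand, a single exon) was higher in every Ivl:BRAFV600E-SOX2LSL tumour but did not pass the adjusted threshold. It was measured at 17.9, 4.39 and 19.7 CPM in RBAV23-4g, RBAV25-3j and RBAV27-2c and at 36.1, 33.7 and 40.6 CPM in the Ivl:BRAFV600E-SOX2LSL tumours. The Ivl:BRAFV600E-SOX2LSL tumours were close to each other, and RBAV25-3j lay far below the other Ivl:BRAFV600E tumours. For Sox21 the log2 fold change was 1.39 ± 0.49 (SE, adjusted p = 0.135 in edgeR), and 0.97 without RBAV25-3j. Genes of the hair shaft and cuticle, where Sox21 acts, summed to 237, 73.7 and 174 CPM in the Ivl:BRAFV600E tumours and to 31.1, 71.4 and 80.2 CPM in the Ivl:BRAFV600E-SOX2LSL tumours RBBD12-1j, RBBD5-2a and RBBD9-2f. Among the Ivl:BRAFV600E tumours, Sox21 and this sum were both lowest in RBAV25-3j. Between the groups they differed in direction. The median log2 fold change of the 14 hair shaft genes tested was −1.96, with 2 above 0, against 1.39 for Sox21. The hair shaft sums of the groups overlapped, unlike the Sox21 levels. Of the 14 hair shaft genes tested, 1 was called, Hoxc13, a regulator of hair keratin genes, which was lower (log2 fold change −2.86 ± 0.36, adjusted p = 0.0175 in edgeR). The Hoxc13 call was lost in edgeR without RBAV23-4g (adjusted p = 0.0951), RBAV25-3j (0.0573) or RBAV27-2c (0.0590). Gm4675, a noncoding gene on the other strand, overlaps 18.8% of the Sox21 exon, and its 6 to 23 reads per tumour did not pass the test (log2 fold change −0.15, adjusted p = 0.867 in edgeR).

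The 4 SOX genes that were higher without overlap are shown with the 250 bases before a RefSeq start site, on the GRCm38.p6 build, to let their upstream sequences be compared. The windows are chr13:28953700-28953949 (minus) for Sox4, chr12:27342719-27342968 (minus) for Sox11, chr6:143947107-143947356 (minus) for Sox5 and chr14:118237031-118237280 (minus) for Sox21. Capitals mark the words ACAAAG and ACAATG on either strand, which are written CTTTGT and CATTGT where the word lies on the other strand.
Sox4: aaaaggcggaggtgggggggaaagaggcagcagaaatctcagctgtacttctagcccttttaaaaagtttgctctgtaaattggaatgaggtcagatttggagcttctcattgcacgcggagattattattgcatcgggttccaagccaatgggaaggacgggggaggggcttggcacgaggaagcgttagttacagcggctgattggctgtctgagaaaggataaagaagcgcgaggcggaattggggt
Sox11: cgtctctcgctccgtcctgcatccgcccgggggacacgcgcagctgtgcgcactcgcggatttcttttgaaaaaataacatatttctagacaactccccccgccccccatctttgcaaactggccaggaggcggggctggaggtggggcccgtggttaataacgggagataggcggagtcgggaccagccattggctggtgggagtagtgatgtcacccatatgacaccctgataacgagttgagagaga
Sox5: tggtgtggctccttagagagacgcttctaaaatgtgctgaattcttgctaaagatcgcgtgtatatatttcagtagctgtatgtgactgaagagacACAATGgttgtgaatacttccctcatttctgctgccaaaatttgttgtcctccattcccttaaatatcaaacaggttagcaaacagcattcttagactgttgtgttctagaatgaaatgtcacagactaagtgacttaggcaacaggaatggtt
Sox21: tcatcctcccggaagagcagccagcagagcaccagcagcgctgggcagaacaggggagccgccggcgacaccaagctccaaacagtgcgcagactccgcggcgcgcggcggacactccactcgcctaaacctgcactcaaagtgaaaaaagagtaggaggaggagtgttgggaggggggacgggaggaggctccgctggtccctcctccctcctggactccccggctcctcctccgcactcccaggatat
Sox5 had 1 match, ACAATG at position −154 relative to the start, and Sox4, Sox11 and Sox21 had 0. A match was found in 25.2% of 32851 RefSeq windows of the same length. The Sox4, Sox11 and Sox21 windows held 11, 17 and 17 CpG dinucleotides and the Sox5 window 3, against a median of 6 over all windows. The Sox5 window lies inside the gene, before an internal start. RefSeq windows were matched for 8 of the 10 SOX genes, all but Sox7 and Sox9.

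Sox9 (chr11:112782224-112787760, plus strand), the factor of hair follicle stem cells, did not pass the test. It was measured at 55.5, 53.8 and 63.4 CPM in the Ivl:BRAFV600E tumours and at 59.3, 36.2 and 28.2 CPM in RBBD12-1j, RBBD5-2a and RBBD9-2f. RBBD12-1j lay within the Ivl:BRAFV600E range, and the other 2 were below it. For Sox9 the log2 fold change was −0.48 (95% interval −1.10 to 0.14, adjusted p = 0.297 in edgeR). Without RBBD12-1j it was −0.84 (adjusted p = 0.0248 in edgeR), so the call on Sox9 turned on that tumour. Of the 14 hair follicle stem cell genes tested, 1 was called, and their median log2 fold change was 0.20. The called gene, Tbx1, is a T-box factor of these cells and had a log2 fold change of −3.92 ± 0.49 (adjusted p = 0.0168 in edgeR). The Tbx1 call was lost in edgeR without RBAV23-4g (adjusted p = 0.0726), RBAV25-3j (0.0584) or RBAV27-2c (0.0544). Other genes of the list lay in the opposite direction: Krt15, Tcf7l2 and Runx1 were higher without overlap, with log2 fold changes of 1.63, 0.68 and 0.83, and were not called in edgeR (adjusted p 0.0903 to 0.159). DESeq2 called 3 of the 14, Tbx1 lower and Krt15 (adjusted p = 0.0406) and Tcf7l2 (0.0297) higher, and 5 had an unadjusted p below 0.05 in edgeR.

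Sox7 (chr14:63943673-63950732, plus strand), the SOXF gene among the 10, was the only one that was lower in every Ivl:BRAFV600E-SOX2LSL tumour. It was measured at 134, 153 and 150 CPM in the Ivl:BRAFV600E tumours and at 22.1, 78.3 and 81.6 CPM in RBBD12-1j, RBBD5-2a and RBBD9-2f. The Ivl:BRAFV600E tumours were within 1.14 times of each other, whereas RBBD12-1j was far below all others. The group means of 145.8 ± 10.3 and 60.6 ± 33.4 CPM (SD, n = 3 each) differed by 2.40 times, with a log2 fold change of −1.27 ± 0.44 (SE, adjusted p = 0.134 in edgeR). Without RBBD12-1j the log2 fold change was smaller in size, −0.87, and the adjusted p was 0.0102 in edgeR.

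The other SOXF genes, which act with Sox7 in blood and lymph vessels, did not pass the test in edgeR. Sox18 was measured at 5.18, 4.30 and 6.18 CPM in the Ivl:BRAFV600E tumours and at 7.13, 8.55 and 13.8 CPM in the Ivl:BRAFV600E-SOX2LSL tumours, with a log2 fold change of 0.91 ± 0.29 (SE, adjusted p = 0.116 in edgeR and 0.0402 in DESeq2). Sox17 was measured at 2.39, 1.11 and 2.52 CPM and at 2.38, 2.27 and 2.28 CPM, with a log2 fold change of 0.20 (adjusted p = 0.757 in edgeR). The ratio of Sox18 to Sox7 per kb of exon was 0.0787, 0.0570 and 0.0840 in the Ivl:BRAFV600E tumours and 0.657, 0.223 and 0.343 in RBBD12-1j, RBBD5-2a and RBBD9-2f. The summed level of 12 endothelial markers was 249.8 to 254.5 CPM in the Ivl:BRAFV600E tumours and 240.0 to 287 CPM in the Ivl:BRAFV600E-SOX2LSL tumours, and 0 of the 12 were called in edgeR (adjusted p from 0.0976). DESeq2 called 1 of the 12, Kdr, a receptor for vascular endothelial growth factor, and limma-voom 0, with 2 at an unadjusted p below 0.05 in edgeR. Kdr and Pecam1 were the markers without overlap between the groups, Kdr lower (38.4, 31.6 and 30.6 against 25.9, 21.4 and 23.7 CPM) and Pecam1 higher. The part of endothelial cells in the Sox7 level was not tested. The summed level of 10 keratinocyte markers was 81220, 119300 and 104600 CPM in the Ivl:BRAFV600E tumours and 13580, 44590 and 42340 CPM in RBBD12-1j, RBBD5-2a and RBBD9-2f, in the same order of tumours as Sox7 apart from RBBD5-2a and RBBD9-2f. This sum was carried by the keratins Krt1, Krt10 and Krt14, and the suprabasal keratin Krt10 had means of 32350 and 3878 CPM. The markers differed in direction: Krt1, Krt10 and Lor were lower in every Ivl:BRAFV600E-SOX2LSL tumour, and Itga6, Itgb4 and Dsg3 were higher. Of the 10, 0 were called in edgeR and limma-voom, 6 in DESeq2, 5 in edgeR without RBBD12-1j and 6 at an unadjusted p below 0.05. The part of these markers in the Sox7 level was not tested.

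**Figure D3:**
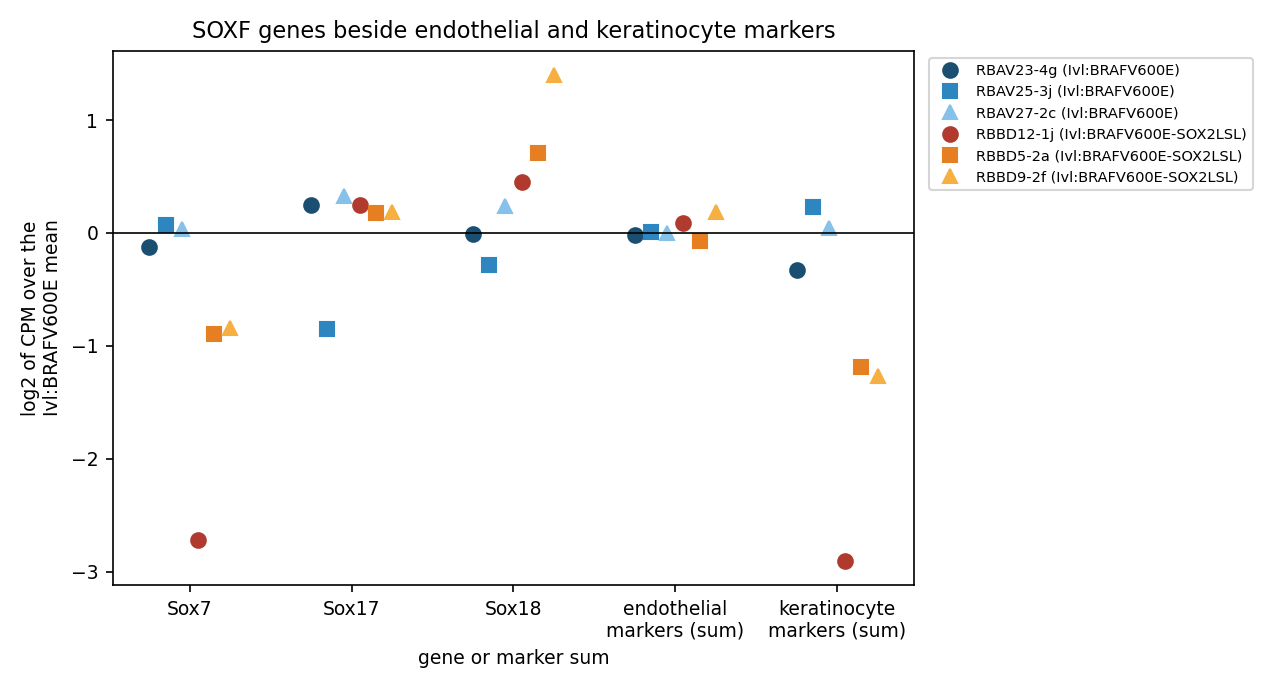
Sox7, Sox17 and Sox18, the sum of 12 endothelial markers and the sum of 10 keratinocyte markers (horizontal axis) in each tumour, as log2 of the CPM over the mean of the Ivl:BRAFV600E tumours (vertical axis), blue for Ivl:BRAFV600E and red to orange for Ivl:BRAFV600E-SOX2LSL. Sox7 and the keratinocyte sum are lowest in RBBD12-1j (22.1 and 13580 CPM). The endothelial sum lies between 240.0 and 287 CPM, and single markers of both sums differ in direction. The part of either cell type in the Sox7 level was not tested.

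Sox15 (chr11:69655314-69656727, plus strand) showed no separation of the groups. It was measured at 23.3, 25.8 and 15.4 CPM in the Ivl:BRAFV600E tumours and at 22.1, 11.3 and 15.0 CPM in the Ivl:BRAFV600E-SOX2LSL tumours, and the ranges overlapped. The log2 fold change was −0.41 (95% interval −1.10 to 0.28, adjusted p = 0.406 in edgeR). Sox15 shares 31 exon bases with Mpdu1 on the other strand, whose 789 to 1326 reads per tumour did not pass the test (log2 fold change −0.04, adjusted p = 0.858 in edgeR).

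Per kb of exon, the SOX genes covered a wide range of levels, and the order changed between the groups. In Ivl:BRAFV600E tumours, mean levels in CPM per kb ran from Sox7 at 44.2 over Sox15 at 25.0, Sox9 at 13.9, Sox13 at 8.80, Sox4 at 4.66 and Sox21 at 3.69 to Sox6 at 0.849, Sox12 at 0.637, Sox11 at 0.379 and Sox5 at 0.0660. Of these neighbours, Sox4 and Sox21 were the only pair whose ranges over the 3 tumours overlapped. In Ivl:BRAFV600E-SOX2LSL tumours, the levels of Sox15 at 18.8, Sox7 at 18.4, Sox4 at 17.4, Sox13 at 13.4, Sox9 at 9.97 and Sox21 at 9.68 overlapped from each gene to the next. Sox11 at 1.69, Sox6 at 1.62 and Sox12 at 0.978 formed a lower set whose ranges also overlapped, and Sox5 at 0.289 was the lowest. Sox5 and Sox6 have long exon sets with many alternative exons, 14376 and 14832 bases, which lowers their level per kb.

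The sum of the 10 genes per kb lay between 99.0 and 105.0 CPM per kb in the Ivl:BRAFV600E tumours and at 109, 79.3 and 88.3 in RBBD12-1j, RBBD5-2a and RBBD9-2f. RBBD5-2a and RBBD9-2f were thus below all Ivl:BRAFV600E tumours and RBBD12-1j above them. Sox7 gave 39.7% to 45.9% of this sum in the Ivl:BRAFV600E tumours and 6.14%, 29.9% and 28.0% in RBBD12-1j, RBBD5-2a and RBBD9-2f. Sox4 gave 3.67% to 5.62% in the Ivl:BRAFV600E tumours and 27%, 14.1% and 13.3% in the Ivl:BRAFV600E-SOX2LSL tumours. The Sox4 to Sox7 ratio per kb was 0.112, 0.0829 and 0.123 in the Ivl:BRAFV600E tumours and 4.39, 0.470 and 0.475 in RBBD12-1j, RBBD5-2a and RBBD9-2f, so Sox4 exceeded Sox7 in a single tumour. Sox2 alone reached 88.5, 75.4 and 76.7 CPM per kb in the Ivl:BRAFV600E-SOX2LSL tumours, which was 0.811, 0.951 and 0.869 times the sum of the 10 genes. These Sox2 values use the exon length of the native gene, 2057 bases. The length of Sox2 in the transgene is not given in the sources used here, and a shorter one would raise them.

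**Figure D4:**
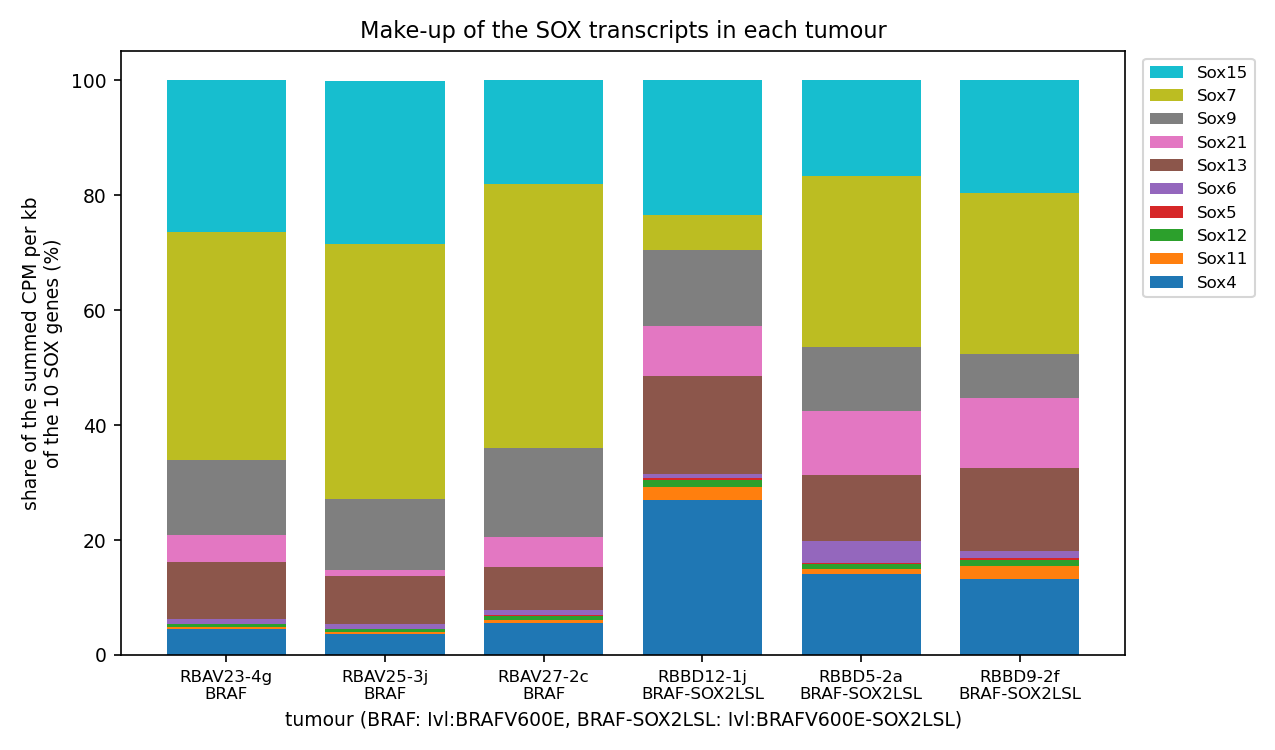
Share of each SOX gene (colours) in the summed CPM per kb of the 10 genes (vertical axis, percent) in each tumour (horizontal axis), 3 Ivl:BRAFV600E tumours on the left and 3 Ivl:BRAFV600E-SOX2LSL tumours on the right. The Sox7 share is 39.7% or more in the Ivl:BRAFV600E tumours and 6.14% in RBBD12-1j, where the Sox4 share is 27%.

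The tumours of a group did not contribute evenly. RBBD12-1j was the highest Ivl:BRAFV600E-SOX2LSL tumour for 7 of the 10 SOX genes and the lowest for Sox6 and Sox7, and RBBD5-2a was the lowest for 7. Among the Ivl:BRAFV600E tumours, RBAV27-2c was the highest for 7 genes and RBAV25-3j the lowest for 6. Without RBBD12-1j, 4 SOX genes were called in edgeR, Sox4 and Sox5 higher and Sox7 and Sox9 lower, beside 6.69% of all genes. With DESeq2, 5 SOX genes were called (Sox4, Sox11, Sox5, Sox21 and Sox7), beside 18.2% of the 20046 genes with an adjusted p.

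Markers of several cell types moved with genotype or with single tumours. Skeletal muscle markers were called higher for 9 of 15 tested, and their sum was 5.29 to 7.94 CPM in the Ivl:BRAFV600E tumours and 226 to 1098 CPM in the Ivl:BRAFV600E-SOX2LSL tumours. The muscle genes Myh4, Myod1 and Myog were at 0 in the Ivl:BRAFV600E tumours. The called muscle genes with the smallest p were Acta1, Tnnt3, Des and Myh1, with log2 fold changes of 9.31, 9.04, 5.42 and 8.86. Tnnt3 was at 0.0341 to 0.0475 CPM in the Ivl:BRAFV600E tumours, below 3 counts, so its fold change is imprecise. With a tumour left out, the log2 fold change ran from 7.68 to 10.96 for Myh1 and from 4.79 to 5.86 for Des. The 9 muscle calls became 0 without RBAV23-4g or RBAV25-3j, 2 without RBAV27-2c, 4 without RBBD5-2a and 1 with limma-voom. Of 11 leukocyte and 4 lymphatic markers, DESeq2 called 4 and 2, and 6 and 2 had an unadjusted p below 0.05 in edgeR. In edgeR, Ptprc and Csf1r of the leukocyte markers were called higher (log2 fold changes 1.30 and 1.98), and Pdpn of the lymphatic markers (2.00). These 3 calls held in edgeR without RBBD12-1j and were lost with any other tumour left out (adjusted p 0.0553 to 0.184) and with sex as a covariate (0.0717 to 0.0775). Limma-voom kept Pdpn alone (adjusted p = 0.0443), and Ptprc was also lost in edgeR under upper-quartile scaling (0.0510) and under the size factors of DESeq2 (0.0501). Fibroblast markers (9 tested, 0 called in edgeR and limma-voom, 3 in DESeq2 and 3 at an unadjusted p below 0.05) summed to 806 to 5166 CPM and 4062 to 8546 CPM, and adipocyte markers (6 tested, 0 called by each of these tools, 2 at an unadjusted p below 0.05) to 18.7 to 48.6 CPM and 13.6 to 62.9 CPM, with RBBD12-1j the highest for both. Schwann cell, melanocyte and chondrocyte markers had 0 called in edgeR of 8, 7 and 3 tested, with 1, 1 and 0 at an unadjusted p below 0.05, and DESeq2 called 1 Schwann cell marker. The part of these cell types in the SOX values was not tested.

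The remaining SOX genes ranged from Sox2 to genes at 0 counts. Of 10 SOX genes outside the set described, Sox2 included, 6 were tested, and Sox2 alone was called (log2 fold change 8.35 ± 0.34, adjusted p = 0.000807 in edgeR). Sox10, a gene of melanocytes and Schwann cells, was measured at 1.47, 0.185 and 1.71 CPM in the Ivl:BRAFV600E tumours and at 0.559, 0.648 and 0.614 CPM in the Ivl:BRAFV600E-SOX2LSL tumours (adjusted p = 0.452 in edgeR). RBAV25-3j was thus low for Sox10 as it was for Sox21. Sox8 and Sox3 had 20 and 5 reads over all tumours, Sox30 had 3, and Sox1, Sox14 and Sry had 0, which allows up to 0.0839 to 0.143 CPM per tumour.

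Genes that are known to work with SOX factors were not called in edgeR. Of 12 partner factors listed, 8 were tested and 0 passed the test in edgeR or limma-voom, against 2 in DESeq2, 2 in edgeR without RBBD12-1j and 4 at an unadjusted p below 0.05. Their log2 fold changes had a median of −0.17, and 4 of the 8 did not overlap between the groups, Pou3f1 higher and Klf4, Klf5 and Tfap2c lower, beside 18.2% of all genes higher and 16% lower without overlap. Their sum was 2149 to 2606 CPM in the Ivl:BRAFV600E tumours and 965 to 1873 CPM in the Ivl:BRAFV600E-SOX2LSL tumours. Of 10 targets of beta-catenin, whose signalling SOX factors can modulate, 1 was called lower, Znrf3, a ubiquitin ligase that restrains the pathway (log2 fold change −0.54 ± 0.11, adjusted p = 0.0491 in edgeR), and the median was 0.05. The Znrf3 call held in edgeR without RBBD12-1j (adjusted p = 0.0410) and was lost with any other tumour left out (0.0992 to 0.158), with limma-voom (0.0577), without a filter on low counts (0.0553) and with sex as a covariate (0.109). DESeq2 called 2 of the 10, Znrf3 and, in the other direction, Sp5 (adjusted p = 0.0269), which had at most 0.0475 CPM in the Ivl:BRAFV600E tumours and 0.0280, 0.842 and 0.722 CPM in RBBD12-1j, RBBD5-2a and RBBD9-2f. Without RBBD12-1j, edgeR called 3, Znrf3 lower, Sp5 higher (adjusted p = 0.0213) and Notum lower (0.0283). The direction of Notum turned on that tumour, where it was at 8.25 CPM. Its log2 fold change was 0.997 with all tumours and −3.98 without RBBD12-1j.

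The genes whose log2 CPM followed the called SOX genes most closely were sought among 14420 genes with a mean of at least 1 CPM. For Sox4, Pearson's r over the 6 tumours was highest for Lrrc25 (0.9998), Tm4sf1 (0.9993) and Fah (0.9991). For Sox5 it was highest for Il1rap (0.9986), Crlf2 (0.9976) and Mllt6 (0.9973). The 6 points shared libraries and genotype, and 818 genes for Sox4 and 407 for Sox5 had an r above 0.95, so these names describe a pattern and carry no test.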

How the data were processed

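Total RNA of tumours was depleted of ribosomal RNA and sequenced in paired reads of 150 bases. The authors trimmed the reads with Trim Galore, aligned them to GRCm38 with HISAT2 2.1.0 and counted them per gene with featureCounts (Subread 1.6.3), per the labels and the methods. The deposited values are raw counts per gene. Whether strand or multimapping reads were used is not given in the sources used here, so reads of overlapping genes on opposite strands cannot be told apart.

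The labels hold 4 Ivl:BRAFV600E and 3 Ivl:BRAFV600E-SOX2LSL samples. Columns are named by mouse and were assigned to genotypes from the mouse list of the study, 3 per group. The 1 column of counts that matched no listed mouse was not used, and its genotype is uncertain: its prefix is that of the Ivl:BRAFV600E-SOX2LSL columns, while the labels hold room only for a further Ivl:BRAFV600E sample. Each column is a different mouse. Floors of 3 counts cover counting error only, and an exact permutation test of 3 against 3 cannot give a p below 0.1.

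Features that reached 5 reads in 1 tumour or more were tested with edgeR 4.0.16 (quasi-likelihood test, TMM, genotype as the only factor, Benjamini-Hochberg over all genes, threshold 0.05) in R 4.3.3. CPM are after TMM. Pearson's r used log2 CPM with a prior count of 2. Levels per kb divide CPM by the union of exons in GENCODE M21. Sequences are from RefSeq (GRCm38.p6) and from the GENCODE M21 transcripts. DESeq2 1.42.0, limma 3.58.1 (voom), other scalings and filters, sex as a covariate and the removal of each tumour were alternatives. Scripts were tested on simulated counts and ran in Python 3.11.15 with pandas 2.3.3 and matplotlib 3.10.9.

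The SOX genes and the gene lists were chosen with earlier results of these data known. Named genes were all 10 SOX genes, the other SOX genes tested, genes of each list that were called (at most 4 per direction), the 3 genes most like each called SOX gene, and genes that overlap their exons. Other listed genes in the text (Tead2, Klf4, Klf5, Tfap2c, Pou3f1, Krt15, Tcf7l2, Runx1, Sp5, Notum, Krt1, Krt5, Krt10, Krt14, Lor, Itga6, Itgb4, Dsg3, Kdr, Pecam1, Myh4, Myod1 and Myog) were chosen after their values were seen. The lists were SOX partner factors, SOXC targets, cartilage targets, hair follicle stem cell, hair shaft and beta-catenin genes, and markers of endothelial, lymphatic, muscle, melanocyte, Schwann, fibroblast, keratinocyte, leukocyte, fat and cartilage cells.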

Additional observations from a re-analysis of the deposited data

How the results depend on the processing

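The 10 SOX genes kept the sign of their log2 fold change under all 13 alternatives, and 108 of the 130 values stayed on their side of the threshold. Most of these belonged to genes that were not called in the main fit. The 14 values that lost a call all belonged to Sox4 and Sox5, the 2 genes called, and 8 values of other genes gained a call. In edgeR 2 of them were called, in DESeq2 5, with DESeq2's size factors 1 (Sox5, as Sox4 moved to an adjusted p of 0.0501), and with limma-voom or sex as a covariate 0. Leaving out 1 tumour gave 0 to 4 calls, with 0 without any of the 3 Ivl:BRAFV600E tumours or RBBD9-2f, 2 without RBBD5-2a (Sox11 and Sox5) and 4 without RBBD12-1j. The number of all genes called was 954, against 3653 with DESeq2, 1759 without a filter on low counts, 228 with sex as a covariate and 22 to 1575 with a tumour left out. Of the SOX genes outside the 10, DESeq2 called 2 (Sox2 and Sox18), and edgeR 1. Over all listed genes 15 were called, against 38 with DESeq2, 4 with limma-voom, 8 with sex as a covariate and 0 to 26 with a tumour left out. The log2 fold change of Sox17 was 0.20, and it ran from −0.0886 without RBAV25-3j to 0.39 without RBAV27-2c. The cause of these shifts was not tested. No paired analysis was possible because the columns are named by mouse and carry no replicate number. Depth limited statements on Sox3, Sox8, Sox30 and the SOX genes at 0 counts.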
